A study of Mus musculus with 6 samples.

Results

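Intraflagellar transport (IFT) and cilium genes were followed through the restimulation of mouse helper T cells. The 38 genes, taken by name from 48440 in the table, encode the subunits of the IFT-B and IFT-A trains, the retrograde motor, the BBSome, the ciliary ARF-like GTPases and part of the transition zone. All 38 were found, and 36 had enough reads to be tested. RNA was sequenced from CD4+ T cells of wild-type mice, purified from spleen and lymph node, in 6 libraries. The 3 stimulated libraries came from cells that received antibodies to CD3 and CD28 for 4 hours. The 3 unstimulated libraries came from cells that did not. Both groups had already been activated once on plate-bound antibodies to CD3 and CD28 for 3 days and then kept in interleukin 2 (IL2) for 5 days, so the unstimulated cells were rested after an earlier activation.

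A primary cilium is a single antenna built on the mother centriole. IFT-B trains, pulled by kinesin-2, carry cargo to its tip, IFT-A trains return with cytoplasmic dynein-2, the BBSome moves membrane receptors, and the transition zone gates the base. T cells are known for building no primary cilium, yet in human T cells IFT20, together with IFT52, IFT57 and IFT88, returns T cell receptors to the immune synapse, and mouse T cells use IFT20 as well.

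Most of the genes were lower after stimulation. Of the 36 tested, 27 fell and 3 rose, while 6 did not pass the test. Among all 13314 genes tested, 39.1% fell and 38.4% rose at the same threshold, a Benjamini-Hochberg adjusted p under 0.05 over all genes in the quasi-likelihood fit of edgeR. For the called cilium genes this p ran from 6.1e-09 to 0.016 in edgeR. In all, 77.5% of genes were called, so that a call as such says little about a gene here. The median log2 fold change, stimulated over unstimulated, was -1.37 over the 36 genes (quartiles -2.21 and -0.42) and -0.04 over all tested genes (quartiles -0.96 and 0.83). In 27 of the 36 every stimulated library lay below every unstimulated one, a pattern held by 40.4% of all tested genes, and in 4 every stimulated library lay above, as in 39.4% of all. In either direction 31 of the 36 did not overlap, near the 79.8% of all tested genes. A change beyond 2-fold, tested with edgeR's glmTreat, was called downward for 18 of the 36, against 18.2% of all tested genes. Upward it was called for 17.4% of all tested genes, and among the cilium genes Traf3ip1 came closest (edgeR, adjusted p = 0.062).

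**Figure D1:**
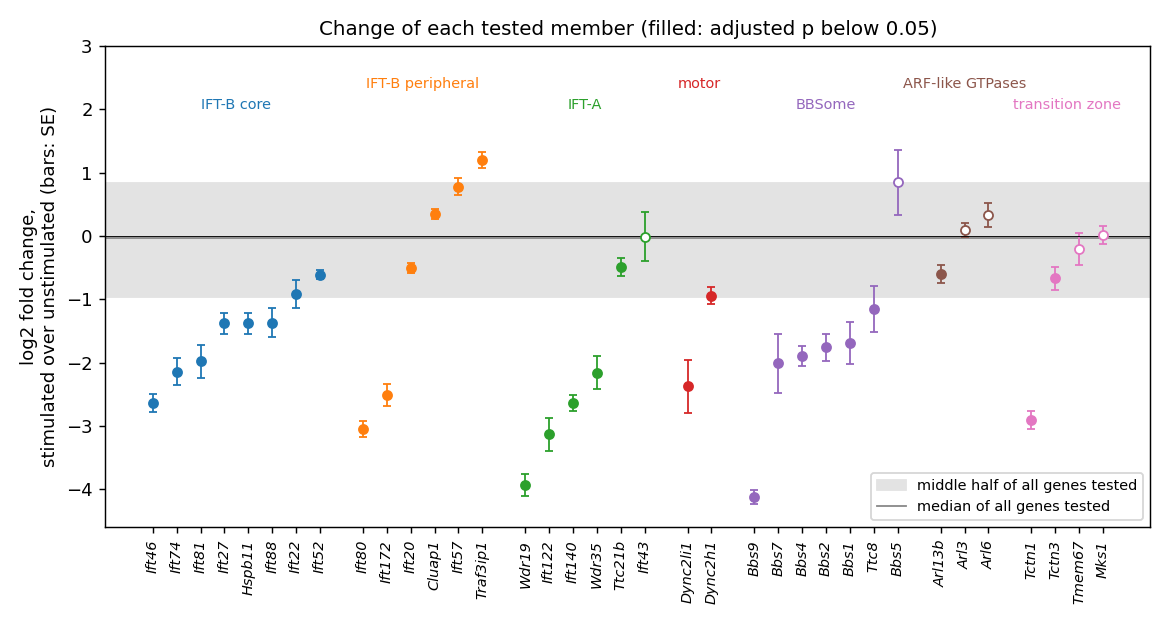
Log2 fold change, stimulated over unstimulated, of the 36 tested genes along the horizontal axis by complex (points, bars ± 1 SE), filled where the adjusted p was under 0.05; the grey band spans the quartiles of all tested genes and the line their median. Bbs9, Wdr19, Ift122 and Ift80 lie lowest at -4.12, -3.93, -3.13 and -3.04, and the filled points above 0 are Cluap1, Ift57 and Traf3ip1.

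Levels are normalised read counts in CPM, the usual depth-scaled unit, on TMM-scaled library sizes, in the order of replicates 1, 2 and 3, and changes as log2 fold changes ± SE. The labels call the 3 libraries of a group biological replicates but do not say that they came from separate mice, so that p-values measure the spread between these libraries. In bulk RNA, fewer cells of a type and less RNA per cell cannot be told apart. CPM is a share of each library, so levels per cell were not measured. The libraries held 29897720 to 30252923 counts, and 3 reads corresponded to about 0.1 CPM. Stimulated cells had 216, 313 and 224 CPM of Il2, the growth factor transcribed on receptor engagement, against 0.605, 0.442 and 0.377 CPM in unstimulated cells. Cd4, the marker of the purified cells, was at 350.1, 317 and 332 CPM in stimulated cells, against 975, 1028 and 949 CPM in unstimulated cells. All 7 T cell markers fell, and their sum was 1891 to 1929 CPM in stimulated libraries, against 3804 to 4107 CPM in unstimulated ones. Among markers of other cells, 5 of 6 B cell genes fell, with a sum of 729 to 1280.4 CPM in stimulated libraries, against 1402 to 2858 CPM in unstimulated ones; most of it was Ighm, and the other 5 summed to 28.4 to 29.2 CPM in stimulated libraries, against 66.7 to 69.1 CPM in unstimulated ones. Of 6 myeloid markers 2 fell and 4 were not called or not tested, with a sum of 2.21 to 2.80 CPM in stimulated libraries, against 5.72 to 7.19 CPM in unstimulated ones. The 4 NK cell genes summed to 58.2 to 112 CPM in stimulated libraries, against 1.79 to 19.7 CPM in unstimulated ones, of which Eomes, also made by T cells, was nearly all. Stromal markers summed to 46.0 to 59.2 CPM in stimulated libraries, against 176 to 195 CPM in unstimulated ones, nearly all of it Pecam1, also made by T cells. Apart from Pecam1, which fell, Col1a1 rose (1.12 ± 0.36), Col1a2 was not called (1.06 ± 0.85), and Pdgfra and Acta2 were not tested. The 2 CD8 genes summed to 20.7 to 25.8 CPM in stimulated libraries, against 20.9 to 24.8 CPM in unstimulated ones, while Cd8a rose (1.1 ± 0.13) and Cd8b1 fell (-0.33 ± 0.13). None of these markers was at 0 in every library. The B cell and myeloid sums were lower in stimulated cells, as were most cilium genes, and the stromal sum was lower through Pecam1. The part of these other cells in the result was not tested.

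Since RFX factors bind ciliary promoters at a palindrome called the X-box, the promoters were searched for GTNNCCNNGGNNAC, where N is any base. The RefSeq promoter table (GRCm38.p6, 250 bases before to 50 bases after each gene's start) held 33 of the 38 genes. It had no entry for Ift81, Ift80, Ift122, Dync2li1 and Tmem67. A match stood in 10 of the 33 promoters, 30.3%, against 1.89% of 27025 promoters in the table and 2.21% of those of tested genes. Being palindromic, the motif reads alike on both strands. Forms with a different number of bases between CC and GG were not searched. These are the 11 matches, given 5′ to 3′ on the gene's strand with the 8 fixed letters in capitals, to show that the letters between them vary from gene to gene:
Ift22: GTttCCtgGGctAC
Ift22: GTcgCCgtGGaaAC
Ttc26: GTtgCCgtGGaaAC
Ift57: GTtgCCgtGGtgAC
Wdr19: GTctCCtgGGtgAC
Bbs1: GTtgCCaaGGcgAC
Bbs4: GTcgCCcgGGaaAC
Bbs7: GTtgCCttGGaaAC
Mks1: GTtgCCagGGgaAC
Tctn1: GTtgCCcgGGcaAC
Tctn2: GTtaCCatGGctAC
The matches were centred at positions from -114 to 43 relative to the annotated start. Ift22 held 2 of them, centred at -56 and -26. The shorter half-site GTTGCC, searched on both strands and overlapping the X-box in some promoters, stood in 51.5% of the 33 promoters and 12.7% of all.

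Matches stood in promoters of genes that moved in different ways. Among genes that fell, 6 of 23 with an entry had one (26.1%), and among the tested genes that rose or were not called, 2 of 8 had one (25%). Ttc26 and Tctn2, below the filter on low counts, held the remaining ones. The promoters of Wdr19, the X-box gene with the deepest fall, and Ift57, the X-box gene that rose, are shown whole, lower case with the X-box in capitals. They lie at chr5:65199446-65199745 and chr16:49699044-49699343 of GRCm38.p6, both on the plus strand.
Wdr19: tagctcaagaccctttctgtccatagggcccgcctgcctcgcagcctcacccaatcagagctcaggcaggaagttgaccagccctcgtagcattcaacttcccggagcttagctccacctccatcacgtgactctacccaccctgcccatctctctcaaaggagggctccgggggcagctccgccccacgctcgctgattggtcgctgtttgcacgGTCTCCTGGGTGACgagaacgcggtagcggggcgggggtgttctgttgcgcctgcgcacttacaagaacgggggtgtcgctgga
Ift57: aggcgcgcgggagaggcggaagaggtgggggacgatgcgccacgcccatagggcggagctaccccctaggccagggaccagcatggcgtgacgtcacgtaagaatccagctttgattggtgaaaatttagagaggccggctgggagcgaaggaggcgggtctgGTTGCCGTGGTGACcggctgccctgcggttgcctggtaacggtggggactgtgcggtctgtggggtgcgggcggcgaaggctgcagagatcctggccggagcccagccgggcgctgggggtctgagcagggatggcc
A match of letters is a description of the window and not a measured binding site.

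The IFT-B core, the part of the train on which the other subunits assemble, was lower in each subunit that could be tested. All 8 tested subunits of 9 fell, with a median log2 fold change of -1.38, and the summed level of the 9 was 55.8 ± 1.15 CPM in stimulated and 132 ± 11.7 CPM in unstimulated cells (SD, n = 3 each). Ift46 fell most. It had 4.43, 5.27 and 5.31 CPM in the stimulated libraries, against 26.1, 30.8 and 36.6 CPM in the unstimulated ones (log2 fold change -2.64 ± 0.15, edgeR adjusted p = 2.8e-07). The groups were far apart, with the lowest unstimulated library several times above the highest stimulated one. In GRCm38 the gene lies at chr9:44767908-44793447, plus strand. Ift74 and Ift81 form the pair that binds tubulin cargo. Ift74 was at 1.24, 1.33 and 1.38 CPM in the stimulated libraries, against 4.49, 6.13 and 6.88 CPM in the unstimulated ones (-2.14 ± 0.21). Ift81 was at 0.992, 0.702 and 1.34 CPM in the stimulated libraries, against 3.60, 3.57 and 4.84 CPM in the unstimulated ones (-1.98 ± 0.27). Both were low in every library, and neither overlapped between groups (GRCm38 chr4:94614491-94693229, plus strand and chr5:122550204-122614518, minus strand).

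Ift27, a Rab-like GTPase, and Hspb11, its partner also called IFT25, couple the train to BBSome exit. Ift27 had 6.38, 7.23 and 9.17 CPM in the stimulated libraries, against 17.5, 18.4 and 23.3 CPM in the unstimulated ones (-1.38 ± 0.16). Hspb11 had 4.75, 6.60 and 4.89 CPM in the stimulated libraries, against 12.6, 13.7 and 16.1 CPM in the unstimulated ones (-1.38 ± 0.16). No library of one group entered the range of the other for either gene. Ift88, the subunit whose loss abolishes cilia in mice, had 2.52, 1.79 and 1.41 CPM in the stimulated libraries, against 4.49, 5.59 and 4.75 CPM in the unstimulated ones (-1.37 ± 0.23, edgeR adjusted p = 0.00047). All 3 stimulated libraries lay below the unstimulated ones, with stimulated replicate 1 closest. A fall of Ift88 beyond 2-fold was not called (glmTreat in edgeR, adjusted p = 0.056). Ift52, a scaffold of the core, fell less (-0.61 ± 0.066) and was the most abundant core subunit, at 31.5 ± 0.949 CPM in stimulated and 48.0 ± 1.12 CPM in unstimulated cells. Ift22, a second GTPase-like subunit, fell by 0.92, with an adjusted p of 0.004 in edgeR that became 0.061 without replicate 2 of both groups. Over the alternatives its adjusted p ran from 0.00047 to 0.061 in edgeR, limma-voom or DESeq2. Ttc26, also called IFT56, had 9 reads over the 3 stimulated libraries and 16 over the 3 unstimulated ones and was not tested.

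**Figure D2:**
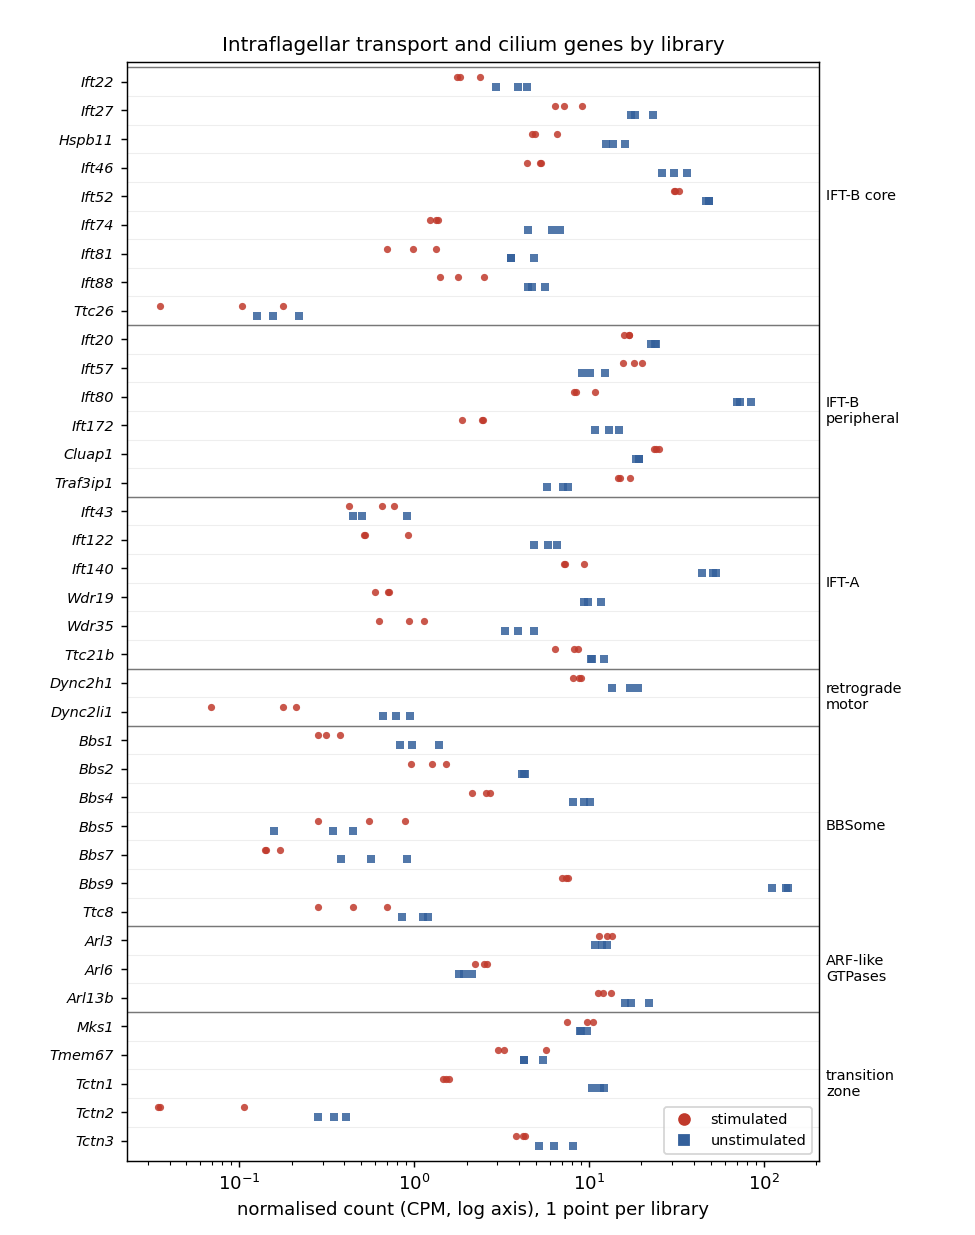
CPM on a log axis in each library for the 38 genes, grouped by complex, with 1 point per library and the stimulated points drawn above the unstimulated ones in each row. The stimulated points lie to the left for 27 of the 36 tested genes, with the widest gap for Bbs9 (7.02 to 7.55 CPM in stimulated and 111 to 137 CPM in unstimulated cells), and to the right for Ift57, Cluap1, Traf3ip1 and Arl6.

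The peripheral IFT-B subunits, which join the core to motors and membranes, were split. Of the 6 subunits 3 rose and 3 fell, with a median of -0.08. Ift20, the Golgi-anchored subunit that T cells use for receptor recycling, had 17.0, 15.9 and 16.9 CPM in the stimulated libraries, against 23.9, 22.8 and 24.1 CPM in the unstimulated ones (-0.51 ± 0.078, edgeR adjusted p = 0.00028). Its libraries (GRCm38 chr11:78536361-78541737, plus strand) did not overlap between groups, although its fall was among the smallest of the genes called. Ift80, a subunit of the train's flank, had 8.22, 8.50 and 10.9 CPM in the stimulated libraries, against 72.9, 84.6 and 70.1 CPM in the unstimulated ones (-3.04 ± 0.13). Ift172, which binds at the train's edge and helps it turn round at the tip, had 1.88, 2.46 and 2.48 CPM in the stimulated libraries, against 10.8, 13.1 and 15.0 CPM in the unstimulated ones (-2.51 ± 0.18). These 2 falls were much deeper than that of Ift20, and Ift80 (GRCm38 chr3:68892499-69004570, minus strand) alone made up 51.0% of the summed peripheral level in unstimulated cells.

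The other 3 peripheral subunits were the only ones of the 36 genes to rise. Traf3ip1, also called IFT54, a microtubule-binding subunit, had 17.3, 15.1 and 14.7 CPM in the stimulated libraries, against 7.57, 7.08 and 5.78 CPM in the unstimulated ones (1.20 ± 0.13, edgeR adjusted p = 2.6e-05). Its groups were apart, the lowest stimulated library being well above the highest unstimulated one. In GRCm38 it lies at chr1:91494647-91529307, plus strand. Ift57, which with Ift20 forms part of the synapse complex, had 15.8, 18.0 and 20.3 CPM in the stimulated libraries, against 9.10, 10.1 and 12.3 CPM in the unstimulated ones (0.78 ± 0.14, edgeR adjusted p = 0.00074). Cluap1, also called IFT38, had 23.6, 24.3 and 25.3 CPM in the stimulated libraries, against 19.4, 18.6 and 19.5 CPM in the unstimulated ones (0.35 ± 0.075, edgeR adjusted p = 0.0023). Neither gene's groups overlapped, but the distance was small for Cluap1, and its edgeR adjusted p became 0.052 without replicate 2 of both groups, in a range of 0.00054 to 0.052 over the alternatives. Of the exon bases of Cluap1, 40.8% lie under other annotated genes, which held at most 18 reads in a group, and 7.86% of those of Ift57. How reads in the shared bases were assigned is not known.

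The synapse partners named for T cells thus moved differently: Ift20, Ift52 and Ift88 fell and Ift57 rose. Levels per kilobase of exon were taken over the joined exons of all annotated transcripts of a gene. That length can exceed the length of the RNA made, so these levels compare genes only roughly. Ift52 stood at 11.2 ± 0.339 CPM per kb in stimulated and 17.1 ± 0.400 CPM per kb in unstimulated cells (SD, n = 3 each). Ift20 stood at 10.9 ± 0.382 CPM per kb in stimulated and 15.5 ± 0.468 CPM per kb in unstimulated cells. Cluap1 stood at 10.7 ± 0.366 CPM per kb in stimulated and 8.41 ± 0.195 CPM per kb in unstimulated cells. Those were the most abundant IFT subunits per length in stimulated cells, where their means lay within about 1 to 2 SD of each other. Ift57 followed at 6.30 ± 0.784 CPM per kb in stimulated and 3.68 ± 0.574 CPM per kb in unstimulated cells, while Ift88 was at 0.412 ± 0.121 CPM per kb in stimulated and 1.07 ± 0.125 CPM per kb in unstimulated cells.

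**Figure D3:**
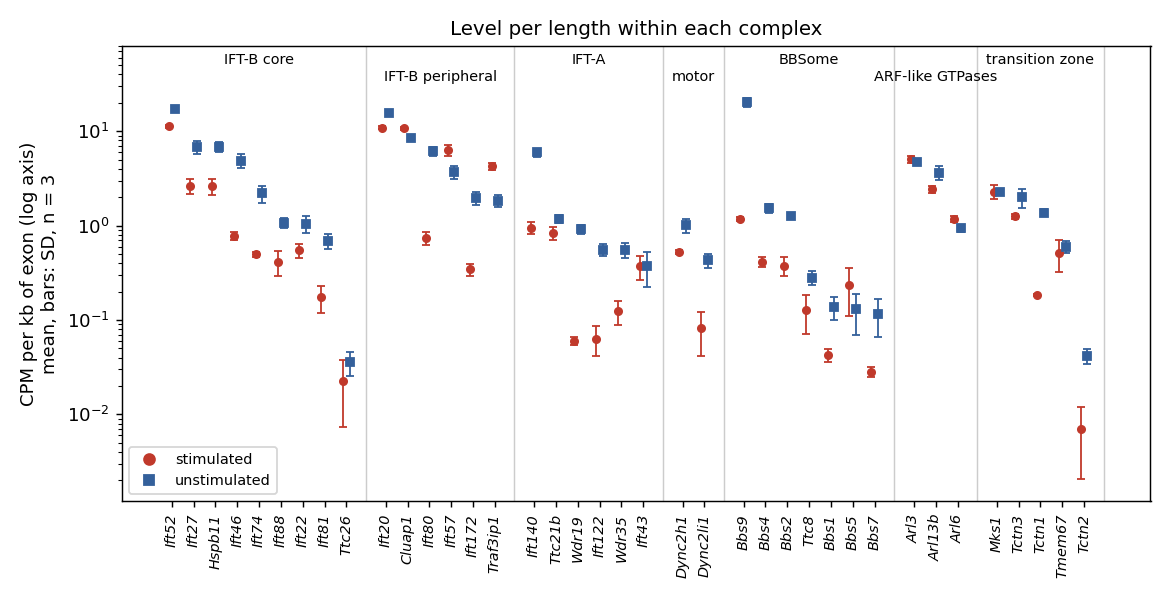
Mean CPM per kilobase of exon (± SD, n = 3 libraries) of the 38 genes on a log axis, stimulated and unstimulated cells side by side. Bbs9 leads in unstimulated cells at 20.4 CPM per kb and stands at 1.18 CPM per kb in stimulated cells.

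IFT-A, the complex that adapts trains for return and brings membrane receptors in, fell in 5 of 6 subunits with a median of -2.40, and its summed level was 18.6 ± 2.23 CPM in stimulated and 81.3 ± 6.43 CPM in unstimulated cells. Ift140, Ift122 and Wdr19, also called IFT144, form its core. Wdr19 had 0.709, 0.597 and 0.724 CPM in the stimulated libraries, against 9.93, 11.7 and 9.40 CPM in the unstimulated ones (-3.93 ± 0.18, edgeR adjusted p = 8.4e-08), a 15.2-fold lower level. Ift122 had 0.922, 0.527 and 0.517 CPM in the stimulated libraries, against 5.85, 6.57 and 4.84 CPM in the unstimulated ones (-3.13 ± 0.26). Ift140 had 9.32, 7.30 and 7.24 CPM in the stimulated libraries, against 51.1, 53.6 and 44.1 CPM in the unstimulated ones (-2.64 ± 0.12). All 3 core genes were separated by wide gaps, and Ift140 was the only one of them above 2 CPM in stimulated cells. In GRCm38, Wdr19 lies at chr5:65199696-65260415, plus strand, and Ift140 at chr17:25016085-25099495, plus strand. It contributed 61.0% of the summed IFT-A level in unstimulated cells.

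Wdr35, also called IFT121, which lies outside that core, had 1.13, 0.632 and 0.930 CPM in the stimulated libraries, against 3.91, 4.84 and 3.33 CPM in the unstimulated ones (-2.16 ± 0.26), again without overlap. Ttc21b, also called IFT139, was at 7.78 ± 1.20 CPM in stimulated and 10.9 ± 1.04 CPM in unstimulated cells. It fell by 0.49, with an adjusted p of 0.011 in edgeR and 0.082 without replicate 2 of both groups, in a range of 0.0016 to 0.082 over the alternatives. Ift43, the smallest subunit, was at 0.617 ± 0.176 CPM in stimulated and 0.621 ± 0.253 CPM in unstimulated cells, and its change of -0.01 ± 0.39 was not called. The 2 listed genes of the retrograde motor dynein-2 also fell. Dync2h1, its heavy chain, had 8.97, 8.78 and 8.13 CPM in the stimulated libraries, against 19.0, 17.2 and 13.5 CPM in the unstimulated ones (-0.94 ± 0.14). Dync2li1, its light intermediate chain, fell by 2.37, at 0.152 ± 0.0741 CPM in stimulated and 0.800 ± 0.138 CPM in unstimulated cells. The 2 motor genes did not overlap between groups.

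The BBSome, a coat that carries receptors out of cilia, fell in 6 of 7 listed subunits with a median of -1.76. Bbs9, a scaffold subunit, fell most of the 36 genes. It had 7.55, 7.02 and 7.44 CPM in the stimulated libraries, against 111, 137 and 135 CPM in the unstimulated ones (-4.12 ± 0.11, edgeR adjusted p = 6.1e-09). No stimulated library reached 8 CPM and no unstimulated one was below 100 CPM, a 17.4-fold lower level that ranked 120th among the falls of all 13314 tested genes. Bbs9 (GRCm38 chr9:22475715-22888280, plus strand) made up 88.6% of the summed BBSome level in unstimulated cells. Per kilobase it stood at 1.18 ± 0.0447 CPM per kb in stimulated and 20.4 ± 2.32 CPM per kb in unstimulated cells. Bbs4, the next highest by that measure in unstimulated cells, stood at 0.410 ± 0.0496 CPM per kb in stimulated and 1.52 ± 0.168 CPM per kb in unstimulated cells. The gap between Bbs9 and the rest was wider in unstimulated cells.

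Bbs4, which links the coat to centriolar satellites, had 2.59, 2.70 and 2.14 CPM in the stimulated libraries, against 8.08, 9.32 and 10.1 CPM in the unstimulated ones (-1.89 ± 0.16). Its exons share 3.21% of their bases with Adpgk, which rose. Bbs2, a core subunit, had 0.957, 1.26 and 1.52 CPM in the stimulated libraries, against 4.30, 4.24 and 4.15 CPM in the unstimulated ones (-1.76 ± 0.21). Neither overlapped between groups. Bbs1, which binds ARL6 on membranes and is used in human T cell lines to polarise the centrosome, fell by 1.69, at 0.326 ± 0.0485 CPM in stimulated and 1.06 ± 0.292 CPM in unstimulated cells (edgeR adjusted p = 0.0013). Bbs7 fell by 2.01, at 0.151 ± 0.0180 CPM in stimulated and 0.621 ± 0.269 CPM in unstimulated cells (edgeR adjusted p = 0.0034). Ttc8, also called BBS8, was at 0.478 ± 0.211 CPM in stimulated and 1.06 ± 0.187 CPM in unstimulated cells and fell by 1.15 (edgeR adjusted p = 0.016). The Ttc8 call was lost without stimulated replicate 1 (0.056), stimulated replicate 3 (0.053), both of replicate 1 (0.1) or both of replicate 3 (0.088), within a range of 0.0084 to 0.1 over the alternatives. Bbs5, which binds phosphoinositides, was at 0.573 ± 0.303 CPM in stimulated and 0.316 ± 0.146 CPM in unstimulated cells and was not called (0.85 ± 0.51). These 4 genes were all low, and Bbs5 was the only one whose groups overlapped.

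The ARF-like GTPases steer cargo through the cilium and, in T cells, ARL3 releases LCK from its carrier UNC119. Arl3 had 11.4, 12.6 and 13.6 CPM in the stimulated libraries, against 10.9, 11.9 and 12.7 CPM in the unstimulated ones, and its change of 0.09 ± 0.11 was not called. Arl6, the GTPase that recruits the BBSome to membranes, was at 2.46 ± 0.194 CPM in stimulated and 1.96 ± 0.164 CPM in unstimulated cells and did not pass the test (0.33 ± 0.19), although its libraries did not overlap between groups. Arl13b, the exchange factor of ARL3 and a standard cilium stain, fell by 0.60, at 12.3 ± 1.06 CPM in stimulated and 18.6 ± 3.20 CPM in unstimulated cells (edgeR adjusted p = 0.0029).

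The transition zone was divided, with 2 of the 4 tested genes lower and 2 not called. Without stimulated replicate 1, 4 genes of the list were called lower. Tmem67 and Tctn2, which was not tested in the main fit, were then added, while Mks1 stayed uncalled. Tctn1, a tectonic of the gating complex, had 1.52, 1.47 and 1.58 CPM in the stimulated libraries, against 10.4, 11.6 and 12.2 CPM in the unstimulated ones (-2.90 ± 0.14, edgeR adjusted p = 1.3e-07). Its groups lay far apart, but 25.5% of its exon bases are shared with Hvcn1 and another gene on the opposite strand, and Hvcn1, a proton channel, was itself lower, at 10.2, 10.5 and 10.6 CPM in stimulated cells, against 46.3, 51.6 and 47.6 CPM in unstimulated cells. The strand setting of the counts is not given, so it is not known how reads there were assigned or whether they were left uncounted. Tctn3, another tectonic, fell by 0.67, at 4.11 ± 0.249 CPM in stimulated and 6.54 ± 1.5 CPM in unstimulated cells (edgeR adjusted p = 0.0088). Mks1, a B9-domain protein, was at 9.28 ± 1.57 CPM in stimulated and 9.22 ± 0.489 CPM in unstimulated cells and was not called (0.01 ± 0.14). Tmem67, a membrane protein of the gate, was at 4.00 ± 1.48 CPM in stimulated and 4.64 ± 0.694 CPM in unstimulated cells and was not called (-0.21 ± 0.26). Tmem67 passed without stimulated replicate 1, at -0.55 with an edgeR adjusted p of 0.035, in a range of 0.035 to 0.89 over the alternatives. Tctn2 had 5 reads over the stimulated libraries and 33 over the unstimulated ones and was not tested in the main fit.

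Across the 36 tested genes, a longer exon length, joined over all annotated transcripts, went with deeper falls. Spearman's rho between exon length and log2 fold change was -0.55, as a description over genes that share the same 6 libraries, against -0.01 over 13286 tested genes with an annotated length. For the span of the gene on the chromosome rho was -0.29, against -0.05. The genes lay on 15 chromosomes, with at most 6 on one, chromosome 5.

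Genes that work beside the IFT trains, listed with earlier results of these data known, moved less uniformly. Of 107 such genes 85 were tested, and 46 fell (54.1%), 19 rose (22.4%) and 20 were not called, with a median of -0.45. Over all tested genes 39.1% fell and 38.4% rose, shares that also stand beside the shorter lists below. Among the IFT motors and remaining train subunits, 7 of 13 fell and 4 rose. Ttc30a1 and Ttc30b, near-identical IFT70 genes whose reads may be split in error, were at opposite ends, with 1.42 ± 0.19 and -2.96 ± 0.28. Of 7 BBSome assembly genes 3 rose and 2 fell, led by the chaperonin subunit Cct2 (1.03 ± 0.055) and by Lztfl1, a brake on BBSome entry (-2.60 ± 0.34). Under 12 of 18 alternatives 1 of these genes fell, among them RLE scaling, DESeq2 and leaving out any single library but stimulated replicate 2. Lztfl1 spread widely over the unstimulated libraries, with 7.30, 6.14 and 7.27 CPM in stimulated cells, against 63.5, 36.9 and 25.6 CPM in unstimulated cells. Of 9 ARL cargo carriers and regulators 6 fell and 3 were not called, and the largest fall was that of Pde6d, a carrier of prenylated proteins (-1.19 ± 0.1).

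At the ciliary base most listed genes fell. Of 15 further transition zone genes tested, 8 fell and 2 rose, with Tmem231 lowest (-3.53 ± 0.23) and Ahi1 the largest rise among those with a mean above 1 CPM (0.90 ± 0.1). Basal body and appendage genes fell in 9 of 13 and rose in 2, but in only 1 under 13 of 18 alternatives, among them library size alone, DESeq2 and leaving out any single library but unstimulated replicate 1. Cep97, which with CCP110 caps the mother centriole and holds back cilium assembly, was at 4.96, 5.97 and 8.82 CPM in stimulated cells, against 82.6, 90.2 and 86.0 CPM in unstimulated cells (-3.71 ± 0.18, edgeR adjusted p = 4.0e-07). Cep83, which builds the distal appendages that dock the centriole to membrane, was at 90.2, 85.5 and 77.2 CPM in stimulated cells, against 35.6, 36.6 and 41.5 CPM in unstimulated cells (1.15 ± 0.088). Both were apart between groups, in opposite directions. Of 12 Rab and docking genes shared by cilium and synapse, 6 fell and 3 rose, beside 39.1% and 38.4% of all tested genes. Rab8a, a GTPase of both sites, changed by -1.46 ± 0.073. Ehd1, which shapes recycling vesicles, changed by 1.92 ± 0.072.

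Among the 6 tested RFX and FOXJ1 transcription factors, a list that includes regulators of ciliary genes, 4 fell, 1 rose and 1 was not called. Rfx2 had 0.673, 0.843 and 0.551 CPM in the stimulated libraries, against 8.50, 10.7 and 8.93 CPM in the unstimulated ones (-3.76 ± 0.2, edgeR adjusted p = 2.4e-07). Rfx3 had 1.88, 1.05 and 1.34 CPM in the stimulated libraries, against 15.5, 16.6 and 13.5 CPM in the unstimulated ones (-3.41 ± 0.2). Rfx1 had 12.9, 15.9 and 15.7 CPM in the stimulated libraries, against 50.1, 51.3 and 52.9 CPM in the unstimulated ones (-1.79 ± 0.095). These 3 X-box binding factors did not overlap between groups and were lower in every stimulated library. Rfx7 fell by 0.33, and Rfx5, an activator of MHC class II genes, was not called at 0.21 ± 0.12; with the replicate number as a block it was (0.21, edgeR adjusted p = 0.04), the range over the alternatives being 0.04 to 0.66. Foxj1, the factor that turns on motile cilium genes and in mouse T cells restrains activation, went the other way, with 2.23, 2.53 and 3.45 CPM in the stimulated libraries, against 0.255, 0.190 and 0.314 CPM in the unstimulated ones (3.41 ± 0.31, edgeR adjusted p = 7.7e-06). Genes of the motile axoneme, which mark multiciliated cells, were low. Of 15 only 4 were tested, of which 3 fell and 1, Ccdc40, rose (0.47 ± 0.18, edgeR adjusted p = 0.039). The Ccdc40 call was lost in 10 of 18 alternatives, among them library size alone (0.33, edgeR adjusted p = 0.13) and leaving out any single library but unstimulated replicate 3, in a range of 0.0055 to 0.21. Of the axoneme genes 1 fell without replicate 2 of both groups, 0 with the filter of 1 CPM and 5 with no filter. The 15 summed to 5.81 to 6.68 CPM in stimulated libraries, against 6.71 to 8.36 CPM in unstimulated ones, and 3 of them were at 0 in all libraries.

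**Figure D4:**
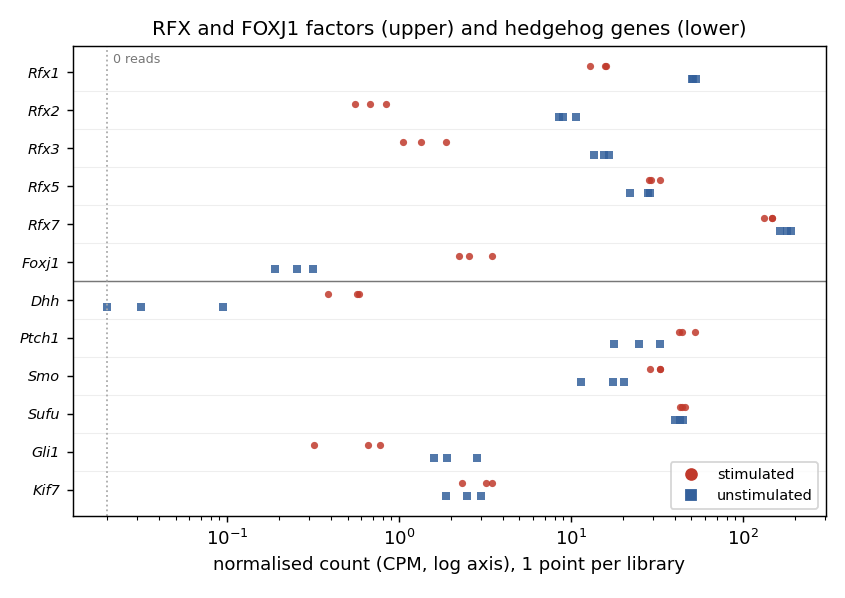
CPM on a log axis in each library for the tested RFX and FOXJ1 regulators (upper rows) and hedgehog genes (lower rows), with 1 point per library and the stimulated points drawn above the unstimulated ones; a library with 0 reads is set on the dotted line. Rfx1, Rfx2 and Rfx3 lie lower in the stimulated libraries and Foxj1 lies higher, at 2.23 to 3.45 CPM in stimulated and 0.190 to 0.314 CPM in unstimulated cells.

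Hedgehog signalling, the pathway that runs through primary cilia in most vertebrate cells, had 6 of 13 listed genes with enough reads to be tested, of which 3 rose and 1 fell. Over all tested genes 38.4% rose and 39.1% fell. Ptch1, the receptor and itself a target, was at 52.3, 44.3 and 42.4 CPM in stimulated cells, against 32.8, 24.9 and 17.8 CPM in unstimulated cells (0.88 ± 0.21). Smo, the transducer that enters the cilium, was at 32.9, 32.9 and 28.6 CPM in stimulated cells, against 20.3, 17.4 and 11.4 CPM in unstimulated cells (0.94 ± 0.19). Gli1, the classical target, was low and fell, at 0.319, 0.772 and 0.655 CPM in stimulated cells, against 1.59, 1.90 and 2.83 CPM in unstimulated cells (-1.85 ± 0.36). None of these 3 overlapped between groups, and the highest Ptch1 and Smo levels in unstimulated cells were both those of replicate 1. Dhh, a ligand, had 44 reads in the stimulated and 4 in the unstimulated libraries, and its log2 fold change of 3.48 ± 0.65 became 4.68 without unstimulated replicate 3 and 2.95 without unstimulated replicate 1. Sufu, a cytoplasmic inhibitor, and Kif7, a kinesin at the ciliary tip, were not called, at 0.06 ± 0.07 and 0.29 ± 0.24.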

How the data were processed

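RNA sequencing reads per Ensembl gene were counted by the authors and deposited as raw counts, 1 table of 48440 genes with a column per library. The submitters' processing notes name the build GRCm38, STAR 2.5.2a, HTSeq and DESeq2, while annotation release and strand setting are not given in the sources at hand. The genes and related lists were chosen with earlier results of these data known. Groups came from the labels. From the counts, edgeR 4.0.16 (R 4.3.3) was run with TMM scaling, filterByExpr (13314 genes left), robust dispersions and a two-sided quasi-likelihood test of the group term, without covariates. P-values were Benjamini-Hochberg adjusted over all tested genes at a threshold of 0.05. SE is the log2 fold change divided by the square root of F. CPM used TMM-scaled totals, and CPM per kb the exon union of GENCODE M21, which matched 48058 identifiers. Genes past the threshold with a log2 change of at least 1 in either direction and a mean of at least 1 CPM, with Ift20 and Ift88, are given in every library; of each related list, the largest rise and fall above 1 CPM, and all tested hedgehog and RFX or FOXJ1 genes. Dync2h1, Ift57, Cluap1, Arl3, Lztfl1, Cep97 and Cep83 were given in every library in addition, after their values were seen. The pipeline was tested on simulated data in which few genes changed, up and down alike. That run cannot show how scaling and calls behave where 77.5% of genes are called, as here. Same-numbered libraries deviated together with correlations of 0.361, 0.0845 and 0.380, while differently numbered ones gave -0.363 to -0.0117. These values lean toward pairing by number, only weakly for replicate 2. The main fit still took no pairs, because the labels name no common origin for equal numbers. A fit with the number as a block was run as an alternative. Dispersion indices of library pairs within a group ran from 8.76 to 34.8, where counting noise gives about 1. The 18 alternatives covered scaling, filters, the replicate block, DESeq2 1.42.0, limma-voom (limma 3.58.1), a threshold of 0.01 and each library left out. Tables and figures used pandas 2.3.3 and matplotlib 3.10.9.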

Additional observations from a re-analysis of the deposited data

How the results depend on the processing

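Over the 18 alternatives 23 to 28 cilium genes fell and 2 or 3 rose, and 26 of the 30 called genes kept their call and direction in all in which they were tested. The median log2 fold change of -1.37 became -1.51 with library size alone and -1.53 with library sizes taken without the 20 most abundant genes. These scalings also moved the median of all genes, by -0.14 and -0.15. Leaving out libraries gave medians of -1.44 to -1.22. Signs turned for uncalled genes: Ift43 became 0.01 with RLE scaling, 0.01 with the replicate block, 0.02 in DESeq2, 0.03 in limma-voom and -0.33 to 0.36 when libraries were left out. Arl3 became -0.05 with library size alone and -0.07 without the 20 genes, and Sufu -0.08 and -0.09. Mks1 became -0.13 and -0.14 under these scalings, -0.01 with the filter of 1 CPM, -0.003 in limma-voom and -0.10 to 0.15 when libraries were left out. The cause was not tested. With the filter of 1 CPM, under which fewer genes are tested, 3 BBSome genes fell. With the replicate number as a block, 27 cilium genes fell and 3 rose, and 5516 of all genes fell and 5326 rose, a block that rests on numbers alone; Rfx5 then gained a call, and every library did deviate most like its own number. Depth limits Dync2li1, Ift43, Bbs1, Bbs5, Bbs7, Ttc8, Dhh and the untested Ttc26 and Tctn2.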
